A study of Homo sapiens with 10 samples.

Results

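The pre-B-cell receptor and its successor, the B-cell receptor, were followed here through the transcripts of 9 component genes, VPREB1, IGLL1, VPREB3, CD79A, CD79B, SYK, BTK, BLNK and CD22. These genes were taken by symbol from a list of receptor components, and all 9 were found among the 27142 genes of the RNA-seq table. The cells were parental 697, an established line from a human leukaemia of pre-B type. The control libraries (n = 2) came from cells labelled as control, with no TPA dose listed. The treated libraries (n = 2) came from cells given 0.5 µg/ml TPA, the phorbol ester best known for activating protein kinase C. The labels give the time of treatment only as 0 to 24 h, and do not tie the replicates to cultures of their own. A p-value here therefore speaks only of the spread among these libraries, which may be technical. The series' 6 ChIP-seq and input DNA libraries, some of them from an inducible line with FH-NAP1, were not analysed here.

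In a pre-B cell the first immunoglobulin heavy chain reaches the surface with a surrogate light chain, made of the VPREB1 and IGLL1 (λ5) proteins, in place of a true light chain. Both this receptor and the later B-cell receptor signal through the CD79A and CD79B chains, whose tails recruit the kinase SYK; SYK phosphorylates the adaptor BLNK, which brings BTK to phospholipase Cγ. CD22 is a sialic-acid-binding co-receptor that dampens the signal. Loss of the surrogate light chain is a usual step as normal precursors leave the pre-B stage.

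Levels are in RPKM, read counts scaled to transcript length and library size, so levels of different genes can be set side by side. Low values of short genes were read as steps worth 1 read. Searched within a range set beforehand, this gave rough depths of 42500000 to 46500000 reads per library. The estimate was not checked against read counts. Differences between groups are on the log2(RPKM + 1) scale, which understates the change of genes with low values, and were tested with limma over the 12159 genes that reached 1 RPKM in 2 or more libraries. At a Benjamini-Hochberg adjusted p under 0.05, 58.2% of these genes passed; 28.4% rose and 29.8% fell. In bulk RNA, fewer cells with a transcript and less of it per cell cannot be told apart.

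All 9 receptor components passed this filter and the test, 5 rising and 4 falling, against that background of 58.2%. Control and TPA libraries did not overlap for any of the 9, as for 79.8% of all genes tested. The members' median difference was 1.042, beside a median of -0.02 over all genes tested, and their range ran from -5.66 to 3.03. The signal chain genes CD79A and CD79B, the light-chain-like gene VPREB3, the kinase gene BTK and the co-receptor gene CD22 rose. Both genes of the surrogate light chain, the adaptor gene BLNK and the kinase gene SYK fell.

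**Figure D1:**
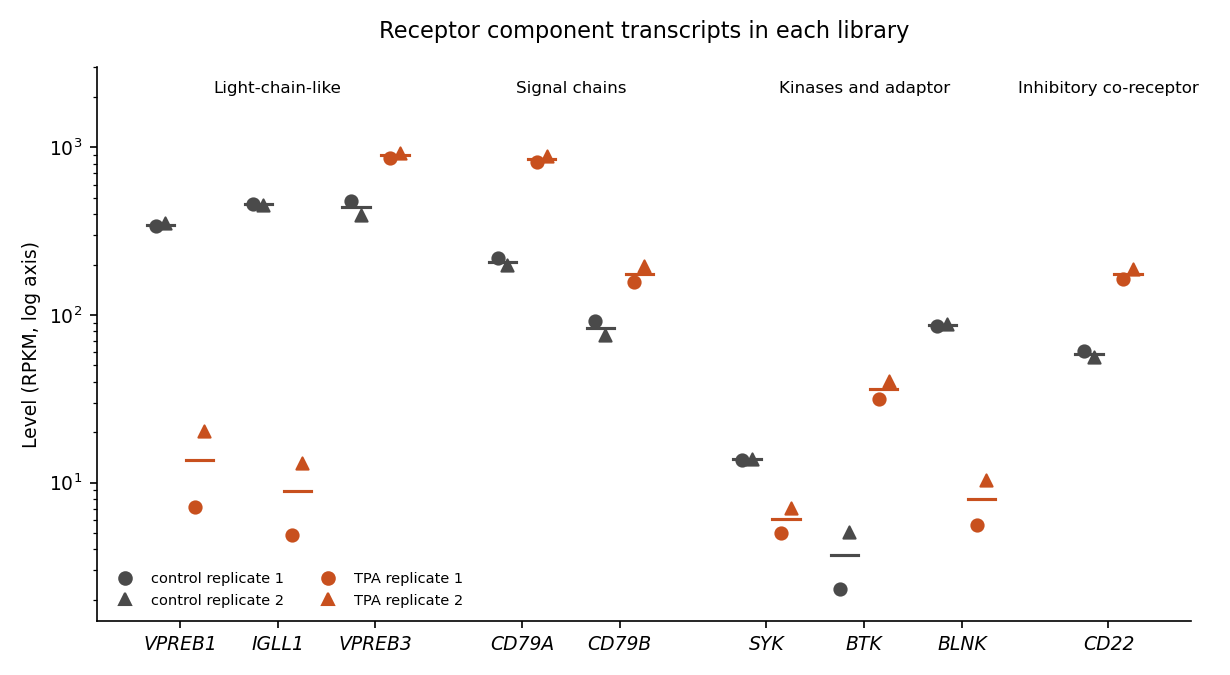
Level of each receptor component (RPKM, log axis) in the 2 control (grey) and 2 TPA (orange) libraries, grouped by role; circles are replicate 1, triangles replicate 2 and bars the group means. VPREB1, IGLL1, BLNK and SYK lie lower with TPA and the other 5 genes higher, and TPA replicate 2 lies above TPA replicate 1 for every gene.

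The surrogate light chain genes had the 2 largest falls among the members. IGLL1 (NM_020070, 22q11.23), which encodes its constant-region-like part λ5, had 459 and 455 RPKM in control replicates 1 and 2 and 4.86 and 13.1 RPKM in TPA replicates 1 and 2. VPREB1 (NM_001303509, 22q11.22), which encodes the variable-region-like part, had 338 and 356 RPKM in control and 7.12 and 20.2 RPKM with TPA. For both genes the control replicates were close to each other, and TPA replicate 1 was the lowest library. The mean of IGLL1 was 51-fold lower with TPA and its log2 difference was -5.66 (SE 0.343, limma adjusted p = 5.42e-06). The mean of VPREB1 was 25.4-fold lower, with a log2 difference of -4.73 (SE 0.371, limma adjusted p = 2.13e-05). Among all 12159 genes 0 had a lower log2 difference than IGLL1 and 6 had a lower one than VPREB1; with a pseudocount of 0.1 in place of 1, 2 genes lay below IGLL1. IGLL1 went from rank 91 and 94 of the 27142 genes, counted from the highest level, to rank 8359 and 5270.

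VPREB3 (NM_013378, 22q11.23) moved the other way. Its product resembles VPREB1 but stays inside the cell with newly made immunoglobulin chains and is not part of the surface receptor. VPREB3 had 480.1 and 397 RPKM in control and 869 and 932 RPKM with TPA, so the groups were separate although the control replicates differed by more than the TPA replicates. The mean rose 2.05-fold, with a log2 difference of 1.042 (SE 0.1498, limma adjusted p = 5.72e-04). In control cells VPREB3 and IGLL1 stood at similar levels, with a ratio of 1.045 in replicate 1 and 0.872 in replicate 2. With TPA, VPREB3 stood 179-fold above IGLL1 in replicate 1 and 71.3-fold above it in replicate 2. The ratio of VPREB1 to IGLL1 was 0.735 and 0.782 in control and 1.47 and 1.54 with TPA, so IGLL1 was the more abundant partner in control and the less abundant one with TPA. An exact permutation test over the 4 libraries gives a two-sided p of 0.333 for each of these ratios, the smallest that 2 libraries against 2 allow, so the ratios are a description.

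The start-site sequences of these 3 light-chain-like genes are shown with that of CD79A, because 2 of the 4 fell and 2 rose although all act in the same receptor pathway. They are the 250 bases before each gene's RefSeq start on GRCh38.p14, written 5′ to 3′ on the gene's strand, at chr22:22244536-22244785 (+) for VPREB1, chr22:23580291-23580540 (-) for IGLL1, chr22:23754426-23754675 (-) for VPREB3 and chr19:41877029-41877278 (+) for CD79A. Capitals mark exact matches, on either strand, to 9 short motifs: CCCNNGGG (EBF1-type), CAGCTG and CACCTG (E-boxes), ATTTGCAT (octamer), TGGGAA (Ikaros-type), GAGGAA (PU.1-type), TGTGGT (RUNX-type), TGANTCA (AP-1, the phorbol ester response element) and GCGNGGGCG (EGR-type).
VPREB1: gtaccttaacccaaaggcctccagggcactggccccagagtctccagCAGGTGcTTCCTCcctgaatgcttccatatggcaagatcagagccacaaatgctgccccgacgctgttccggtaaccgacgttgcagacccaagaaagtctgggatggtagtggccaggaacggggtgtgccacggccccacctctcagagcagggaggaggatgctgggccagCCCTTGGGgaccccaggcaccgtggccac
IGLL1: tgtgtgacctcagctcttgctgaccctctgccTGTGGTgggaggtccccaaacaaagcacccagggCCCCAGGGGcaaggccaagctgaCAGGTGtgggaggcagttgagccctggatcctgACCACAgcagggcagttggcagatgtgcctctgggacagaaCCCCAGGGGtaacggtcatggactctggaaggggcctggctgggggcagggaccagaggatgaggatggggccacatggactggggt
VPREB3: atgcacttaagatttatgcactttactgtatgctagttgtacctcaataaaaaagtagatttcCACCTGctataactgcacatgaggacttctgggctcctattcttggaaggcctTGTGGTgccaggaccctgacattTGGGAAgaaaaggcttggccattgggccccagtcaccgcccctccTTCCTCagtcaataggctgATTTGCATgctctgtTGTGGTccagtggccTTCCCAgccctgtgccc
CD79A: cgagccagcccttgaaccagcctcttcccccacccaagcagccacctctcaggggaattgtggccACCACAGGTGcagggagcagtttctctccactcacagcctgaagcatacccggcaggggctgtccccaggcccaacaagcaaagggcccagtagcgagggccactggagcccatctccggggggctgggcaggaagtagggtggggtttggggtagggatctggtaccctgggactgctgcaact

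Of the members, 8 of 9 had a RefSeq start-site sequence (all but CD79B), with 11 windows in all, since SYK and BTK had more than 1 start. The E-box CACCTG was found in all 4 printed windows and in 6 of the members' 11 windows, against 17.5% of the 35116 windows of this length in the table. In CD79A it overlaps a RUNX-type match, so the 2 appear as 1 run of capitals. An EBF1-type match lay 29 to 22 bases before the VPREB1 start. IGLL1 had 4 such matches in 2 overlapping pairs, between 184 and 176 and between 87 and 79 bases before its start. BTK, which rose, also held a match of this type, 116 to 109 bases before its first start. The other members with a window, fallen or risen, held none. That is 3 of the 11 windows, against 17.1% of all windows. VPREB3 held the octamer 47 to 40 bases before its start, a match found in 1.63% of all windows and in none of the other members. TGANTCA and GCGNGGGCG were found in 0 of the 11 windows, against 6.57% and 8.41% of all windows. A match is a run of letters and not a measured binding site.

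The genes of the 2 signal chains rose, CD79A by more. CD79A (NM_001783, 19q13.2) encodes Igα and CD79B (NM_000626, 17q23.3) its partner Igβ. CD79A had 218 and 199 RPKM in control and 823 and 893 RPKM with TPA. CD79B had 91.8 and 75.7 RPKM in control and 157 and 196 RPKM with TPA. Each TPA library was above both control libraries for both genes. The mean of CD79A was 4.12-fold higher (log2 difference 2.04, SE 0.137, limma adjusted p = 9.36e-06) and that of CD79B 2.11-fold higher (log2 difference 1.06, SE 0.166, limma adjusted p = 8.95e-04). CD79A rose from rank 216 and 272 to rank 48 and 50 of all genes listed. The 2 proteins pair 1 to 1 in the receptor, while their transcripts stood at a CD79A to CD79B ratio of 2.37 and 2.63 in control and 5.23 and 4.57 with TPA. These ratios did not overlap (exact permutation p = 0.333, the smallest possible).

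The make-up of the 9 transcripts differed more between groups than their sum did. Their summed level was 1646 to 1750 RPKM in control and 2067 to 2299 RPKM with TPA, which is 0.426% to 0.472% and 0.591% to 0.592% of all RPKM in a library. VPREB1 and IGLL1 together made up 45.6% and 49.3% of that sum in control and 0.579% and 1.45% with TPA. CD79A and CD79B together made up 17.7% and 16.7% in control and 47.4% and 47.3% with TPA. VPREB3 and CD79A were the 2 most abundant members in both TPA libraries, at 42.0% and 39.8% of the sum in replicate 1.

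**Figure D2:**
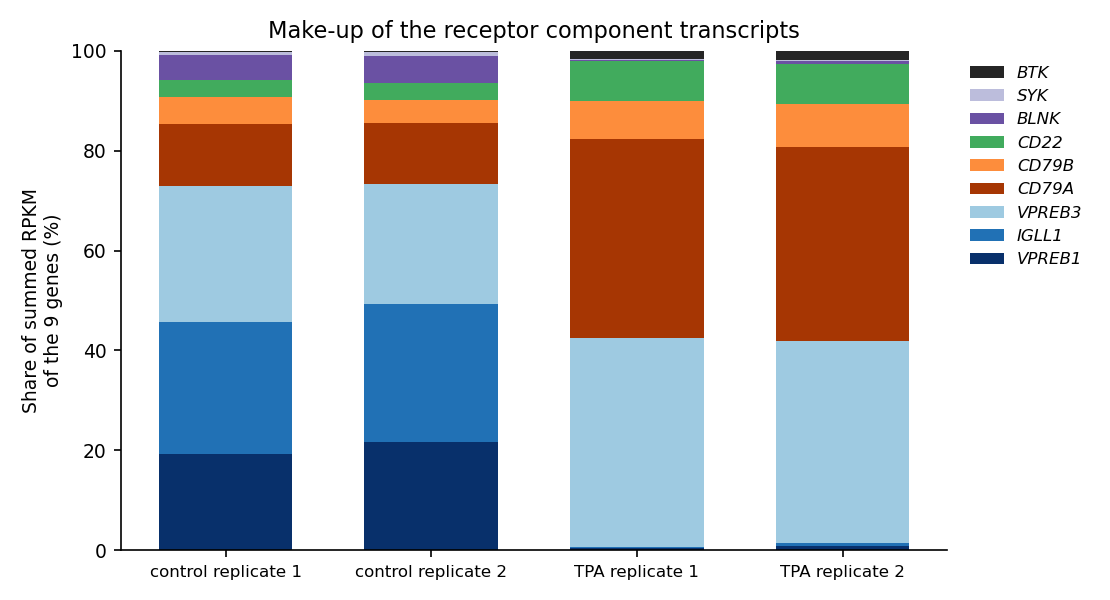
Share of each gene in the summed RPKM of the 9 receptor components (percent, stacked bars, 1 bar per library). VPREB1 and IGLL1 fill 45.6% and 49.3% of the control bars and 0.579% and 1.45% of the TPA bars, while CD79A widens from 12.4% and 12.1% to 39.8% and 38.8%.

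The genes of the first intracellular steps split. BTK, the Tec-family kinase whose loss causes X-linked agammaglobulinaemia (NM_000061, Xq22.1), had 2.32 and 5.095 RPKM in control and 31.5 and 40.6 RPKM with TPA. BTK had the widest spread of any member in control relative to its mean (3.71 ± 1.96 RPKM, mean ± SD, n = 2), yet its lower TPA value lay far above its higher control value. The mean rose 9.71-fold, with a log2 difference of 3.03 (SE 0.270, limma adjusted p = 4.18e-05). Of all genes tested, 181 had a larger rise than BTK.

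BLNK and SYK, which act just before BTK, were lower with TPA. BLNK (SLP-65, NM_001114094, 10q24.1), the scaffold that links SYK to BTK and phospholipase Cγ, had 86.1 and 87.9 RPKM in control and 5.61 and 10.4 RPKM with TPA. SYK (NM_001174168, 9q22.2), the kinase that docks on the phosphorylated signal chains, had 13.7 and 13.9 RPKM in control and 5.03 and 7.08 RPKM with TPA. For both genes the control replicates nearly coincided and TPA replicate 2 was the higher TPA library. BLNK was 10.8-fold lower (log2 difference -3.34, SE 0.236, limma adjusted p = 1.20e-05), and SYK 2.28-fold lower (log2 difference -1.08, SE 0.165, limma adjusted p = 7.84e-04). The ratio of SYK to BTK transcripts was 5.91 and 2.73 in control and 0.160 and 0.174 with TPA, a reversal of their order. That of BLNK to SYK went from 6.29 and 6.33 to 1.116 and 1.47.

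CD22 (NM_001278417, 19q13.12), the inhibitory co-receptor, rose together with the signal chains. It had 61.1 and 56.5 RPKM in control and 164 and 187 RPKM with TPA, with no overlap. The mean was 2.98-fold higher, with a log2 difference of 1.56 (SE 0.140, limma adjusted p = 4.40e-05). Per CD79A transcript CD22 was lower with TPA, at a ratio of 0.199 and 0.210 against 0.281 and 0.284 in control (exact permutation p = 0.333, the smallest possible).

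**Figure D3:**
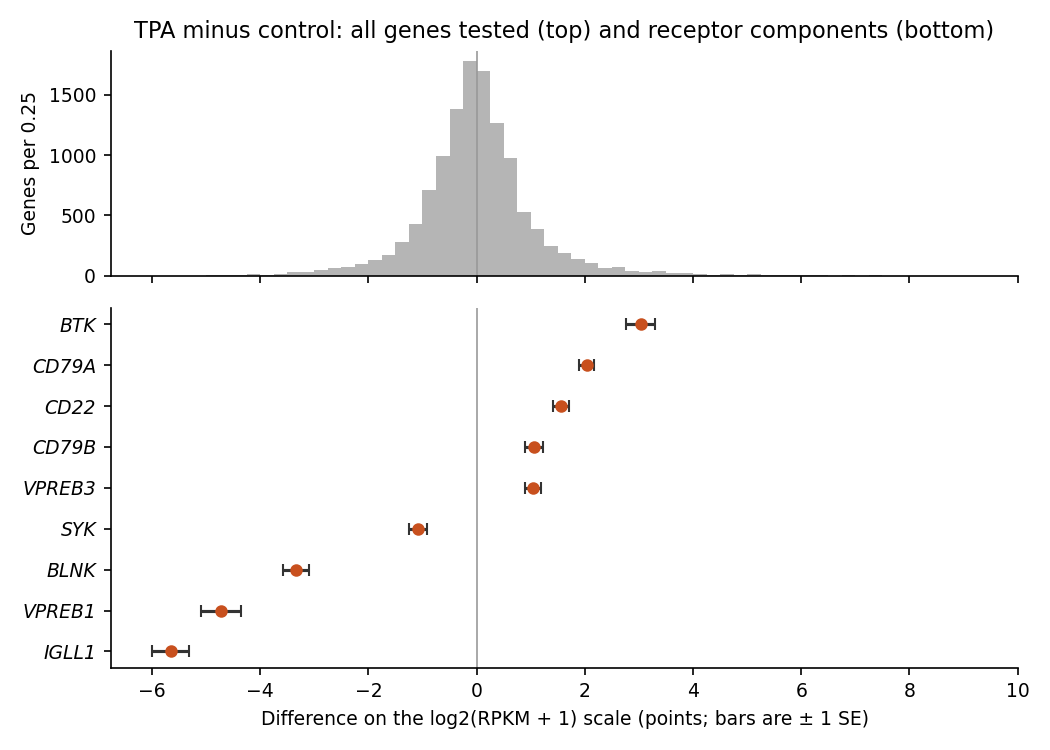
Top, histogram of the TPA minus control difference of all 12159 genes tested; bottom, the same difference for the 9 receptor components with bars of 1 SE, both on the log2(RPKM + 1) scale. IGLL1 at -5.66 and VPREB1 at -4.73 lie at the far left of the histogram, and BTK at 3.03 is the rightmost receptor component.

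The members that fell differed more between the TPA replicates than those that rose. TPA replicate 2 exceeded replicate 1 in all 9 members, as it did in 73.1% of the genes tested. The ratio of replicate 2 to replicate 1 was 2.83 for VPREB1, 2.69 for IGLL1, 1.86 for BLNK and 1.41 for SYK. For the 5 genes that rose it lay between 1.07 (VPREB3) and 1.29 (BTK). Its median was 1.15 over the 387 genes that fell by 2 or more on the log2 scale and 1.09 over all genes that rose. Leaving out TPA replicate 1 moved IGLL1 to a log2 difference of -5.02 and VPREB1 to -4.04; leaving out TPA replicate 2 moved them to -6.29 and -5.42, and every member passed without any 1 library.

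Paralogues of SYK, BLNK and BTK, some of them best known from T cells, were read beside them; these were singled out after their values were seen. ZAP70, the T-cell counterpart of SYK, had 13.6 and 10.8 RPKM in control and 28.2 and 29.3 RPKM with TPA, so in control cells ZAP70 stood close to SYK. LCP2 (SLP-76), the counterpart of BLNK, had 9.93 and 11.25 RPKM in control and 104 and 109.7 RPKM with TPA. Both rose, with log2 differences of 1.18 for ZAP70 and 3.22 for LCP2 (limma adjusted p = 2.89e-04 and 9.74e-07). TEC, the founding Tec-family kinase, fell from 18.6 and 20.0 RPKM to 3.19 and 5.26 RPKM (log2 difference -1.99, limma adjusted p = 6.92e-05). The adaptor genes LAT2 and LAT both rose, from 137 and 164 to 222 and 289 RPKM and from 7.51 and 8.43 to 39.7 and 40.0 RPKM. Differences between a member and its paralogue were not tested.

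**Figure D4:**
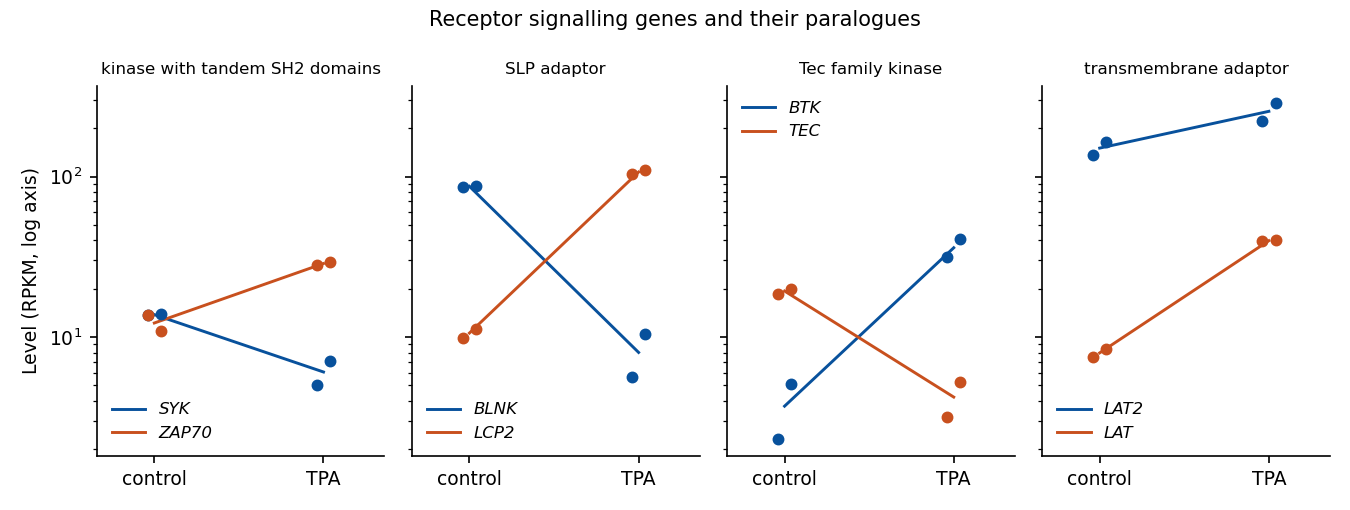
Level (RPKM, log axis) of receptor signalling genes and their paralogues in control and TPA libraries; points are single libraries and lines join the group means. The lines of SYK and ZAP70, of BLNK and LCP2 and of BTK and TEC run in opposite directions, whereas LAT2 and LAT both run upward.

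Markers of other cell types were read beside these values. The T-cell receptor chain genes CD3D and CD3E were listed at 0 in every library, CD3G at 0.017 RPKM or less and CD2 at 0.014 RPKM or less. The summed level of the 10 T-cell markers was 30.2 to 33.8 RPKM in control and 149.8 to 163 RPKM with TPA; 4 of the 10 were tested, all 4 rose (ZAP70, LAT and LCK among them), and 2 of the 10 were at 0 in all libraries. The summed level of 10 myeloid markers was 0.673 to 1.23 RPKM in control and 27.3 to 59.3 RPKM with TPA. Of the TPA sums, FCER1G alone had 24.2 and 55.3 RPKM and CSF1R had 2.93 and 3.66 RPKM. Only these 2 were tested, and both rose, but they passed the filter only through the TPA libraries. MPO, ELANE and LYZ stayed at 0.077 RPKM or less, and CD14, CD33, ITGAM, TYROBP and CSF3R at 0.187 RPKM or less. Of 9 markers of B-lineage precursors, all tested, 7 fell and 2 rose, CD38 among the latter. That is 77.8% falling against 29.8% of all genes tested, and 22.2% rising against 28.4%. The part of other cells in the members' values was not tested. ACTB, among the reference genes, had 1769 and 1671 RPKM in control and 1625 and 1724 RPKM with TPA (limma adjusted p = 0.826). Of the 10 reference genes 5 fell and 1 rose, so 60% were called, against 58.2% of all genes tested.

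Beyond the members, the early kinases and adaptors of the receptor moved both ways. Of 21 genes listed, 20 were tested; 10 rose, 4 fell and 6 did not pass, with a median log2 difference of 0.36 beside -0.02 over all genes. The share called, 70%, was near the 58.2% over all genes tested, while 50% of the list rose against 28.4% of all genes and 20% fell against 29.8%. BANK1, a scaffold that binds the Src-family kinase LYN, rose from 0.077 and 0.123 RPKM to 10.99 and 9.88 RPKM (limma adjusted p = 6.86e-07). CBLB, a ubiquitin ligase that restrains the receptor, rose from 2.75 and 2.90 to 17.2 and 18.4 RPKM. LYN, which phosphorylates the signal chains and CD22, fell from 20.0 and 21.0 to 8.02 and 10.1 RPKM (log2 difference -1.11), and its relative FYN rose from 8.09 and 8.83 to 22.2 and 26.2 RPKM (log2 difference 1.41). BLK, the B-lineage Src-family kinase, had 69.5 and 64.1 RPKM in control and 70.6 and 75.4 RPKM with TPA and did not pass (limma adjusted p = 0.442). VAV2, a guanine nucleotide exchange factor gene, fell from 11.4 and 11.6 to 3.95 and 4.399 RPKM. The count of 14 called genes was 9 without control replicate 1.

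Downstream of BLNK and BTK, most genes of calcium entry and of the NF-κB relay rose. Of 19 genes 18 were tested; 12 rose, 2 fell and 4 did not pass, with a median log2 difference of 1.09. That is 66.7% rising against 28.4% of all genes tested and 77.8% called against 58.2%. STIM1 and STIM2, the calcium sensors of the endoplasmic reticulum, rose from 1.38 and 1.21 to 22.4 and 24.7 RPKM and from 20.0 and 21.3 to 241 and 216 RPKM (limma adjusted p = 6.94e-07 and 8.00e-07). NFATC3, a calcium-driven transcription factor gene, rose from 12.4 and 10.6 to 66.6 and 63.7 RPKM. The substrate of BTK, PLCG2, rose from 3.64 and 3.32 to 9.43 and 8.19 RPKM, while PLCG1 stayed the more abundant of the pair, at 40.2 and 36.4 in control and 42.6 and 39.6 RPKM with TPA, and did not pass (limma adjusted p = 0.556). ITPR3, an inositol trisphosphate receptor gene, fell from 7.66 and 8.28 to 2.12 and 1.91 RPKM. PPP3R1, the calcineurin regulatory subunit gene, fell from 45.1 and 45.6 to 33.997 and 32.1 RPKM, but did not pass without control replicate 1, control replicate 2 or TPA replicate 2 (limma adjusted p = 0.129, 0.148 and 0.0535).

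In a list of phosphatidylinositol 3-kinase (PI3K) and co-receptor genes, few passed. Of 10 genes 9 were tested; 2 rose, 0 fell and 7 did not pass, with a median log2 difference of 0.01. The share called was 22.2%, against 58.2% of all genes tested. PIK3AP1, an adaptor for the kinase, rose from 70.3 and 80.6 to 98.7 and 107 RPKM, but did not pass without control replicate 1, control replicate 2 or TPA replicate 2 (limma adjusted p = 0.269, 0.0698 and 0.0849). The count of 2 called genes was 1 without control replicate 1 or control replicate 2. CR2, a complement receptor of mature B cells, was listed at 0 in every library.

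Inhibitory receptors and their effectors, among which CD22 acts, moved both ways. Of 22 genes 10 were tested; 5 rose, 2 fell and 3 did not pass, with a median log2 difference of 0.28. The share called, 70%, was near the 58.2% of all genes tested, with 50% rising against 28.4% and 20% falling against 29.8%. PECAM1, among those that rose, passed the filter only through the TPA libraries (1.09 and 1.27 RPKM, against 0.124 and 0.246 in control). The other 12 stayed under the filter, 3 of them at 0 in all libraries. CD72, an inhibitory receptor of B cells, rose from 7.46 and 6.88 to 28.0 and 32.1 RPKM (limma adjusted p = 1.26e-05). PTPN6 (SHP-1), the phosphatase that CD22 recruits, rose from 27.3 and 31.4 to 76.6 and 94.6 RPKM (limma adjusted p = 9.75e-05), and CSK, which holds Src-family kinases inactive, from 48.1 and 43.4 to 102 and 110.0 RPKM. PTPN11 (SHP-2) fell from 41.6 and 49.8 to 27.6 and 30.6 RPKM (log2 difference -0.63); without control replicate 2 the difference was -0.50 and did not pass (limma adjusted p = 0.0879). LAIR1, a collagen receptor, fell from 8.68 and 9.47 to 6.25 and 7.06 RPKM (log2 difference -0.40). It stayed lower, at -0.45, -0.34 and -0.32, but did not pass without control replicate 1, control replicate 2 or TPA replicate 1 (limma adjusted p = 0.110, 0.261 and 0.117), nor did it pass with no filter on low values (limma adjusted p = 0.0687). Without control replicate 2 the count of 7 called genes was 4.

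**Figure D5:**
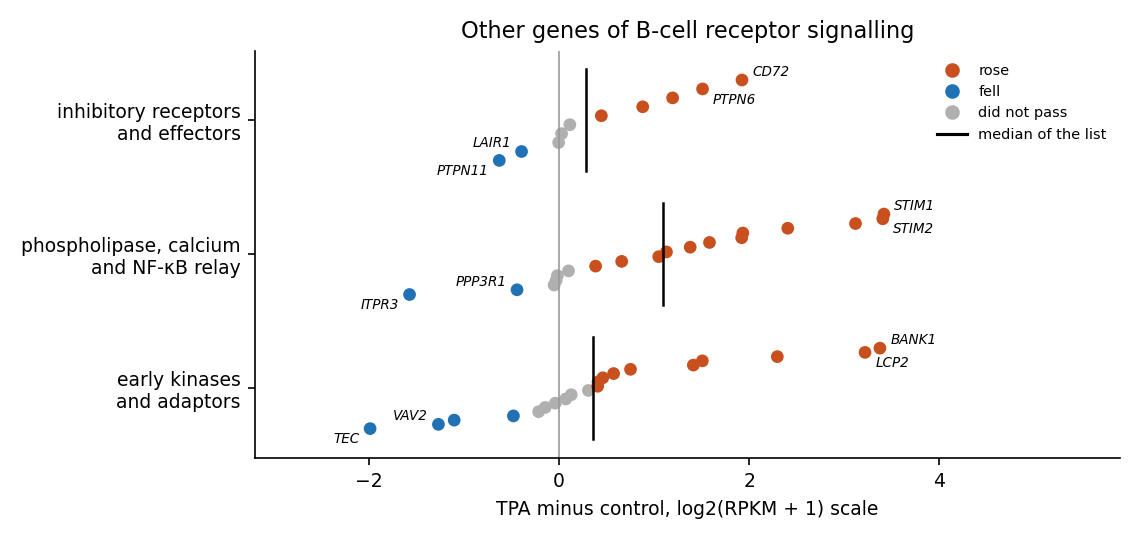
TPA minus control difference on the log2(RPKM + 1) scale for the tested genes of 3 lists of B-cell receptor signalling; each point is a gene, coloured by whether it rose, fell or did not pass, and black bars are list medians. The calcium and NF-κB relay has its median at 1.09 and most points to the right, the early kinases and adaptors at 0.36 and the inhibitory genes at 0.28.

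VPREB1, IGLL1 and VPREB3 lie near each other on chromosome 22, and their neighbours, without the members themselves, were read too. In 22q11.22, 5 of 14 genes listed were tested; 1 rose, 2 fell and 2 did not pass. In 22q11.23, 25 of 55 were tested. Of these, 8 rose, 8 fell and 9 did not pass, with a median log2 difference of 0.11. Over all genes tested, 28.4% rose and 29.8% fell. IGLL5 (22q11.22), a relative of IGLL1 that shares exons with the λ light chain locus, rose from 48.7 and 56.3 to 93.8 and 102 RPKM (log2 difference 0.89, limma adjusted p = 0.00101). The pseudogene IGLL3P had 0.792 and 0.782 RPKM in control and 0.065 and 0.104 RPKM with TPA and was not tested. IGLL1, IGLL5 and IGLL3P are alike in sequence, and how reads that fit several of them were counted is not given in the sources used here, so the split between them is uncertain.

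The genes whose profile over the 4 libraries was closest to that of IGLL1, by Euclidean distance between log2(RPKM + 1) values centred on the control mean (8722 genes averaging 5 RPKM or more), were DNTT, FAM111B and VPREB1 (distances 0.916, 1.29 and 1.32). DNTT, the terminal transferase gene, had 775 and 803 RPKM in control and 14.6 and 37.4 RPKM with TPA. Its TPA replicates stood in the same order as those of IGLL1, as in 74.6% of all genes that fell. Closest to CD79A were HLA-DRB6, SLFN5 and MPG (distances 0.0702, 0.0742 and 0.0979). Their log2 differences were 2.08, 2.07 and 2.05 against 2.04 for CD79A, a likeness that follows from how they were picked.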

How the data were processed

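RNA-seq of 4 libraries (2 control, 2 TPA) was used; groups and replicate numbers came from the sample titles. The authors deposited 1 table of RPKM values per gene, per the file headers, with 1 RefSeq accession, symbol and cytogenetic band for each of 27142 genes. CASAVA 1.8, Bowtie 1.12, TopHat, SAMtools and HOMER and the build hg19 are named in the submitters' processing notes, with no role or order; use of strand is not given in the sources used here. The 9 members and all gene lists were chosen with earlier results of these data known.

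RPKM values take no count model. The 12159 genes that reached 1 RPKM in 2 or more libraries were transformed to log2(RPKM + 1) and fitted with limma 3.58.1 in R 4.3.3 (TPA minus control, mean-variance trend, two-sided, Benjamini-Hochberg adjustment over all genes tested); the code was tested on simulated data. Depth was read as the most common value of 1 read (to within 1%) in genes spanning under 3000 bases with values under 0.3 RPKM. Only depths within a range set beforehand were considered, so a depth outside it could not be found. In control replicate 1, 83 of 434 such genes gave the depth. Gene span stood in for transcript length, which is not in the table, so no counting interval is given. Among 1360 genes averaging 50 RPKM or more, 49.5% differed by over 10% between control replicates and 65.1% between TPA replicates, so none was counted as a copy. Start-site sequences are RefSeq's (GRCh38.p14), matched by symbol, not by hg19 coordinates. Besides the members, the text names from each list the 2 genes with the smallest p in each direction and the 3 genes closest to IGLL1 and to CD79A; other list members named as examples were chosen after their values were seen. Some genes this rule picks are not reported here.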

Additional observations from a re-analysis of the deposited data

How the results depend on the processing

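The 9 members were called in the same direction under all 14 alternatives (pseudocounts of 0.1 and 0.5, no filter, a 5 RPKM filter, median-of-ratios and quantile scaling, limma without trend and with robust estimation, an adjusted p threshold of 0.01, the replicate number as a block, and each library left out), 126 of 126 values. Leaving out 1 library moved BTK between 2.59 and 3.47 and BLNK between -3.73 and -2.95 on the log2 scale. The 7075 genes called ranged from 5470 to 6660 with 1 library left out. Called genes ranged from 9 to 13 for early kinases and adaptors, from 1 to 3 for the PI3K list and from 4 to 7 for inhibitory genes; at a threshold of 0.01 the first 2 lists had 9 and 1. Of 601 values for 43 other genes, 17 lost their call and 0 reversed. A library left alone in its group is assumed to vary like the other group, and with a control library left out limma's prior degrees of freedom were infinite, so those p-values are not comparable with the others. With the replicate block, 8234 genes were called, all 9 members among them, and 4 genes of the PI3K list in place of 2. Replicate differences of control and TPA correlated at 0.361 across genes, but with 2 pairs the numbers are only shared numbers. The 6 ratios of members kept their direction in each setting, among them 4 settings added after seeing the data.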

Other observations

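Other adaptor genes whose products carry the tyrosine activation motif of CD79A and CD79B were at or near 0 in control. FCER1G, the common γ chain of Fc receptors, had 0 and 0.187 RPKM in control and 24.2 and 55.3 RPKM with TPA (log2 difference 5.11, limma adjusted p = 6.85e-06), the wide spread being between the TPA replicates. TYROBP, a similar adaptor of natural killer and myeloid cells, was listed at 0 in all 4 libraries. CD247, the ζ chain of the T-cell receptor, had 0.268 and 0.879 RPKM in control and 0.026 and 0 RPKM with TPA and was not tested. JCHAIN, whose product links IgM or IgA into polymers, fell from 457 and 471 to 172 and 188 RPKM (log2 difference -1.36, limma adjusted p = 7.14e-05).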
